A study of Mus musculus with 7 samples.

Results

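Transcripts of 8 genes known from Schwann cells and their myelin were followed in femur cells of mice, sorted as CD24+CD29+. The genes were Drp2, Prx, Mbp, Pmp22, Sox10, S100b, Egr2 and Ncmap, taken as the rows of the count table whose Ensembl identifier carries that symbol, and they made up 8 of 42687 rows. Drp2 was selected on its measured level, which was lower in the HFD (high fat diet) libraries than in the LFD (low fat diet) libraries, and the rest were listed with it when results of the diet comparison were known. Differences between the diets in these 8 genes are therefore a description, given with a standard error and without a p-value.

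The HFD group had 3 libraries (numbers 2 to 4) from mice on food with 60% fat, and the LFD group had 4 libraries (numbers 1 to 4) from mice on food with 10% fat. All mice were C57BL/6, 3 months old at the start and on their diet for 4 weeks, and the labels name no genetic change. The labels name the sorted cells skeletal stem cells, and they do not say whether a library came from a single animal or from a pool. Library totals ran from 17391613 to 24681838 counts, with 15394 to 18850 genes detected. Values are CPM, counts scaled to a library total of 1e6 counts, after TMM scaling of that total, and errors are SD with n = 3 for HFD and n = 4 for LFD unless SE is written. Xist, the RNA of the inactive X chromosome, had 0 counts in every HFD library and 257 to 526 counts in the LFD libraries, so diet and the sex of the animals cannot be told apart here, and Drp2 lies on the X chromosome. Of the 5 genes that edgeR called between the diets over the whole table, 4 were sex-linked. In a sorted bulk sample, fewer cells of a type and less RNA per cell cannot be told apart.

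Schwann cells wrap the axons of peripheral nerves, including the nerves that enter bone, in myelin. Sox10, the transcription factor of the neural crest lineage, and Egr2 (Krox20), the factor that starts myelination, switch on the genes of the sheath, among them those for myelin basic protein (Mbp), peripheral myelin protein 22 (Pmp22) and periaxin (Prx). Drp2, a relative of dystrophin, sits in the outer membrane of the Schwann cell, where it joins periaxin to dystroglycan, the laminin receptor encoded by Dag1. Several of these genes have other sources in a limb: S100b is also made by chondrocytes, Pmp22 by fibroblasts, Egr2 is an immediate early gene of many cells, and blood cells make the Golli transcripts of the Mbp gene.

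Windows of 250 bases before a start site were read for Prx, Pmp22, S100b, Egr2 and Ncmap from RefSeq's table of build GRCm38.p6. Those at the gene starts of Prx and Ncmap are shown because both genes are myelin genes of the sheath, yet in the library HFD 4 Prx was nearly lost and Ncmap was not. The Prx window is chr7:27499074-27499323 on the plus strand and the Ncmap window chr4:135398228-135398477 on the minus strand, both written 5′ to 3′ along the gene.
Prx: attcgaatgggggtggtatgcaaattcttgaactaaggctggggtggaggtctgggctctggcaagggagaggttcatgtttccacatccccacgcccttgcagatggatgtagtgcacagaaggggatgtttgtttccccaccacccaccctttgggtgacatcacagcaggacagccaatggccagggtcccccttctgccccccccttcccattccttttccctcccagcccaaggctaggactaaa
Ncmap: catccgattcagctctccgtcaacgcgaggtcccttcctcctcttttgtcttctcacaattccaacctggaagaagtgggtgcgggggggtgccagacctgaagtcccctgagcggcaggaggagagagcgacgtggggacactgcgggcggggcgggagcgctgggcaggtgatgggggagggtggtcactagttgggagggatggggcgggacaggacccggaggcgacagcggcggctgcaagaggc
The EGR motif GCGNGGGCG and the SOX motif ACAAAG were searched on both strands, and neither was found in any of the 13 windows of these 5 genes, so no base is in capitals. Of all 32851 windows in the table, 4.7% held the EGR letters and 16.5% the SOX letters. No match says only that these letters are not in these windows.

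Drp2 was the member with the clearest separation between the diets. Drp2 (ENSMUSG00000000223, chromosome X, 134404551 to 134456573, plus strand, mm10) had 26.7, 30.4 and 15 CPM in HFD 2, HFD 3 and HFD 4, against 118, 60.0, 86.0 and 64.0 CPM in LFD 1 to LFD 4. Every HFD library lay below every LFD library, with HFD 4 the lowest and LFD 1 the highest. The means were 24.0 ± 8.06 CPM in HFD and 81.9 ± 26.4 CPM in LFD, a log2 fold change of -1.77 ± 0.35 (SE). These values rest on 314 to 764 counts per HFD library and 959 to 3016 counts per LFD library. The log2 fold change ran from -1.96 to -1.52 over 16 settings of the fit. All settings refit the libraries in which Drp2 was selected on this difference, so the range is no independent support for it.

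Of the 8 members, which were all among the 14304 genes tested, 0 passed an adjusted p of 0.05 in edgeR's quasi-likelihood test, where 0.035% of all genes did (0.028% higher and 0.00699% lower in HFD). At an unadjusted p under 0.05, 1 member was higher and 1 lower, where 7.53% of all genes passed, 5.18% higher and 2.35% lower. DESeq2 called 1 member, Drp2, lower in HFD, where it called 2.25% of its 16073 genes and 0.473% as lower, and limma-voom called 0. The groups did not overlap for 3 members, 2 higher and 1 lower, where this held for 11.9% of all genes, 8.42% higher and 3.48% lower. The members were chosen with this comparison known, so nothing is read from these counts.

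**Figure D1:**
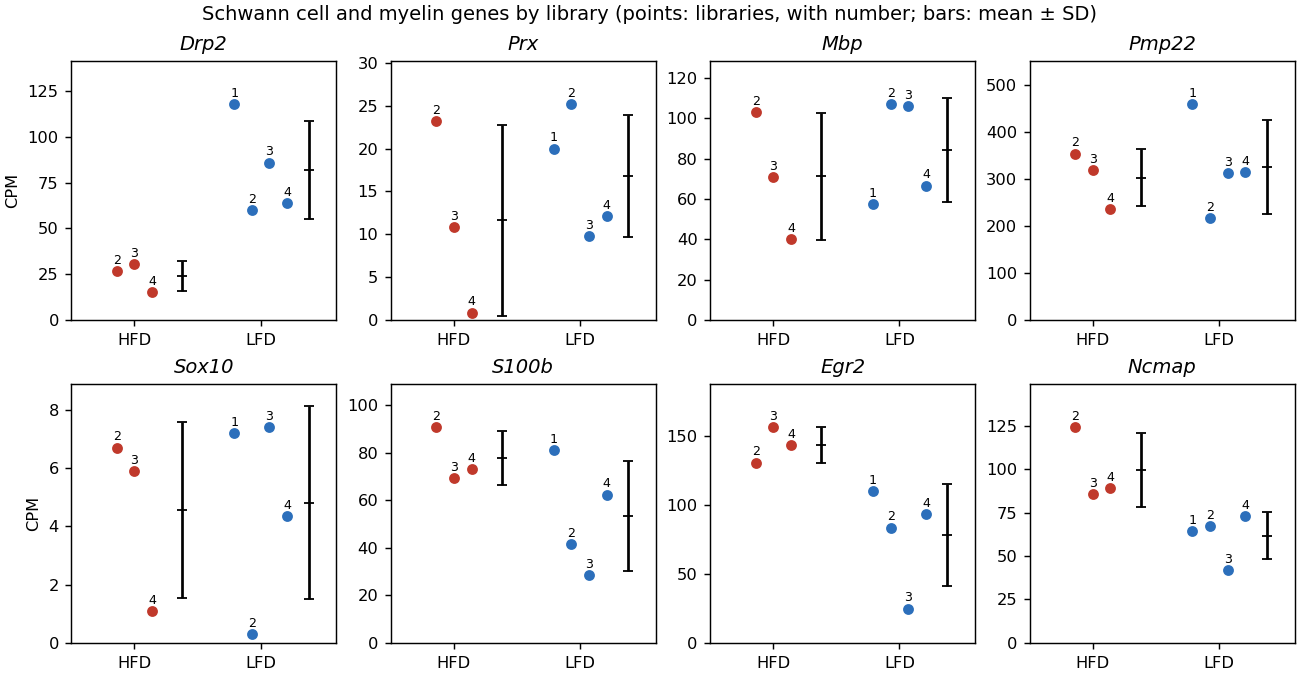
CPM of the 8 genes in each library, with the library number beside each point, HFD (red) left of LFD (blue), and the mean ± SD as a bar (n = 3 and n = 4). Drp2 is lower in all 3 HFD libraries (15 to 30.4 CPM) than in the LFD libraries (60.0 to 118 CPM), while Egr2 and Ncmap lie higher in HFD and the other 5 genes overlap.

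The partner of Drp2 overlapped between the diets. Prx (chromosome 7, 27499324 to 27520214), which encodes the scaffold protein that binds Drp2, had 23.2, 10.8 and 0.859 CPM in HFD 2 to HFD 4, against 20, 25.2, 9.76 and 12.1 CPM in LFD 1 to LFD 4. HFD 4 stood below all other libraries with 18 counts, where the others had 157 to 664, and the other 2 HFD libraries lay inside the LFD range. The log2 fold change of Prx was -0.53 ± 0.86 (SE) with all libraries and ranged over 16 settings from -1.53 without HFD 2 to 0.02 without HFD 4. It was -1.19 by limma-voom and -1.06 with the replicate block. Within a library, the ratio of Drp2 to Prx counts was 1.15, 2.82 and 17.4 in HFD 2 to HFD 4, against 5.88, 2.38, 8.81 and 5.29 in LFD 1 to LFD 4, so these partners kept no fixed ratio. An antisense transcript (Gm15541) shares 300 exon bases with Prx, 5.38% of its exon length, and had 0 or 1 count in each library.

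Sox10 (chromosome 15, 79154908 to 79165240) was the lowest member. It had 6.70, 5.89 and 1.10 CPM in HFD 2 to HFD 4, against 7.21, 0.313, 7.40 and 4.34 CPM in LFD 1 to LFD 4. The low libraries were LFD 2 with 5 counts and HFD 4 with 23 counts, 1 in each diet, and the groups overlapped. Its log2 fold change of -0.08 ± 1.0 (SE) ranged from -0.47, without HFD 2 or without LFD 2, to 0.39 without HFD 4. LFD 2 still had 403 counts of Prx, so a low Sox10 count and a low Prx count did not go together there.

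Among the genes of compact myelin, Mbp (chromosome 18, 82475146 to 82585637), whose protein binds the membrane layers to each other, had 103, 70.7 and 40.1 CPM in HFD 2 to HFD 4, against 57.4, 107, 106 and 66.6 CPM in LFD 1 to LFD 4. HFD 4 was again the lowest library, though by a factor of 2.16 from the median of the other 6, where that factor was 18.7 for Prx. Pmp22 (chromosome 11, 63128982 to 63159547), for a membrane protein of the sheath, had 354, 318 and 236 CPM in HFD 2 to HFD 4, against 459, 217, 313 and 315 CPM in LFD 1 to LFD 4. The groups overlapped for both genes, with log2 fold changes of -0.24 ± 0.37 (SE) for Mbp and -0.11 ± 0.30 (SE) for Pmp22. Over 16 settings Mbp ranged from -0.61 without HFD 2 to 0.05 without HFD 4, and Pmp22 from -0.26 without LFD 2 to 0.11 without LFD 1 and with the replicate block. The count table does not separate the Golli transcripts of Mbp from its myelin transcripts.

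The remaining 3 members had higher means in HFD. Egr2 (chromosome 10, 67535475 to 67542188) had 130.4, 156 and 143 CPM in HFD 2 to HFD 4, against 109.8, 83.4, 24.8 and 93.4 CPM in LFD 1 to LFD 4. All HFD libraries lay above all LFD libraries, and LFD 3 was far below the rest (log2 fold change 0.88 ± 0.43, SE). Ncmap (chromosome 4, 135369576 to 135398227), for a membrane protein of noncompact myelin, had 124, 85.6 and 89.0 CPM in HFD 2 to HFD 4, against 64.1, 67.4, 42.0 and 73.0 CPM in LFD 1 to LFD 4. Its groups did not overlap either, and LFD 3 was again the lowest (0.69 ± 0.25, SE). S100b (chromosome 10, 76253853 to 76261159), a calcium-binding protein used to stain Schwann cells, had 90.6, 69.3 and 73.1 CPM in HFD 2 to HFD 4, against 81.1, 41.4, 28.5 and 62.3 CPM in LFD 1 to LFD 4. LFD 1 reached into the HFD range, and LFD 3 was the lowest (0.54 ± 0.34, SE). The monocyte and macrophage list, cells in which Egr2 can also be active, had summed levels of 1597 to 2108 CPM in HFD and 168 to 780 CPM in LFD, with none of its 14 genes at 0 in all libraries, and its part in the Egr2 values was not tested.

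Per length, the 8 genes spanned a wide range of levels. As the median of the 7 libraries in CPM per kb of exon, Pmp22 had 134, S100b 46.7, Ncmap 32.8, Egr2 32.3, Mbp 8.35, Drp2 7.02, Prx 2.17 and Sox10 1.93. Neighbours in this order had library ranges that overlapped, apart from Pmp22 and S100b, whose ranges were 92.1 to 195 and 19.2 to 61.1 CPM per kb. In a myelinating Schwann cell the transcripts of Mbp and Pmp22 are both abundant. Here Mbp was at 8.40 ± 3.69 CPM per kb in HFD and 9.95 ± 3.07 CPM per kb in LFD. Pmp22 was at 128 ± 25.7 CPM per kb in HFD and 138 ± 42.5 CPM per kb in LFD. These levels depend on the length used. Per kb of the longest transcript, Mbp had 14.8 ± 6.52 CPM in HFD and 17.6 ± 5.42 CPM in LFD. Pmp22 then had 166 ± 33.2 CPM in HFD and 179 ± 54.9 CPM in LFD. Which cells the transcripts came from was not tested.

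**Figure D2:**
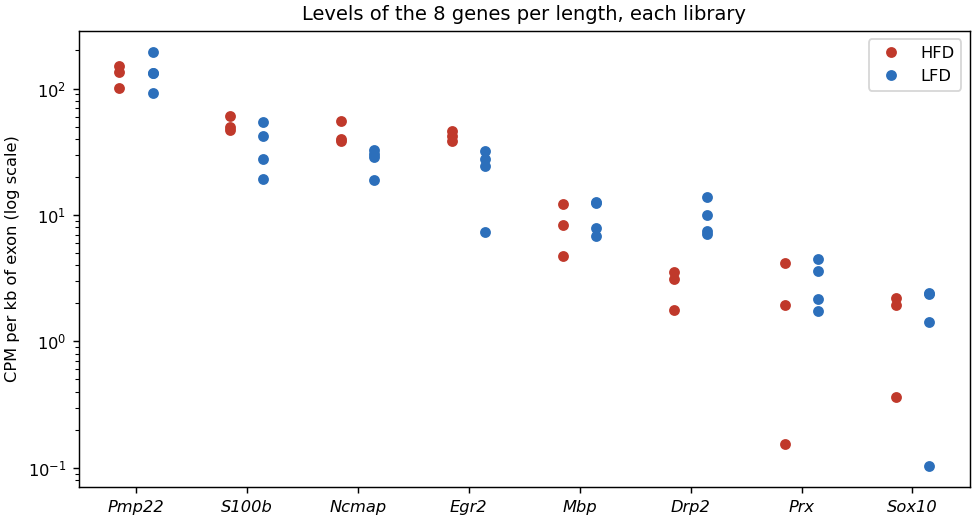
CPM per kb of exon (log axis) of the 8 genes in each HFD (red) and LFD (blue) library, in order of their median. Pmp22 stands alone at the top (92.1 to 195 CPM per kb), S100b, Ncmap and Egr2 follow together, and Prx and Sox10 have the widest spread, down to 0.154 and 0.103 CPM per kb.

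Of the 19 other genes of compact and noncompact myelin, 6 had their lowest level of all 7 libraries in HFD 4. There 9 were at 0, against 8 at 0 in LFD 3. Among them, Mobp was at 0 in every library, Pmp2 had 1 count, in LFD 4, and Ugt8a had counts in HFD 3 only. The zeros of these genes say nothing about HFD 4. The share of all genes lowest in HFD 4 was not computed, so nothing is read from these counts. Mag and Mal are shown as genes nearly absent from HFD 4, a choice made after their values were seen. Mag, for myelin-associated glycoprotein, had 42, 52 and 0 counts in HFD 2 to HFD 4, against 35, 186, 60 and 15 counts in LFD 1 to LFD 4. Mal, for a membrane protein of the sheath, had 70, 122 and 2 counts in HFD 2 to HFD 4, against 88, 89, 91 and 51 counts in LFD 1 to LFD 4. A count of 0 in HFD 4 allows up to 0.143 CPM, a limit of 3 counts that covers counting error only. Others of the same list were not lost in HFD 4: Cnp had 34.5 CPM there, the lowest of its 7 libraries, while Tspan2 with 69.8 CPM, Mpp6 with 47.9 CPM and Gjc3 with 25.8 CPM lay within the range of the other 6. HFD 4 had 21684380 counts in all, within the range of the other libraries. It had 17546 genes detected, where LFD 3 had 15394, the fewest of all libraries.

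Of the 25 genes of the Schwann cell list, 10 were at 0 in HFD 4 and 12 in LFD 3, the library with the fewest detected genes. LFD 3 kept 60 counts of Mag and 91 of Mal. Gfra3 was at 0 in all libraries, and Pmp2, a lipid carrier of myelin, had 1 count in LFD 4 and 0 in every other library. The summed level of the list was 126 to 275 CPM in HFD and 196 to 295 CPM in LFD. Its most abundant genes were Ncam1 and Plekhb1, and Ncam1, which is not particular to glia, had 60.8 to 80.4 CPM in HFD and 73.4 to 126 CPM in LFD. Of the 21 genes of this list that were tested, 12 were higher and 9 lower in HFD, 0 passed the adjusted threshold of edgeR, DESeq2 or limma-voom, and 0 had an unadjusted p under 0.05 in edgeR.

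The members split by how they behaved in HFD 4. Prx, Mbp and Drp2 were lowest of all 7 libraries there, and Sox10 and Pmp22 were second lowest, above LFD 2 only. The median of the other 6 libraries over HFD 4 was 5.74 for Sox10 and 1.34 for Pmp22. Ncmap, Egr2 and S100b in HFD 4 were above the median of the other 6 libraries. Set against Prx in the same library, Ncmap had 5.34, 7.92 and 104 counts per Prx count in HFD 2 to HFD 4, against 3.2, 2.67, 4.3 and 6.04 in LFD 1 to LFD 4. The other myelin genes were divided in the same library, so HFD 4 does not separate the 8 members from them.

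**Figure D3:**
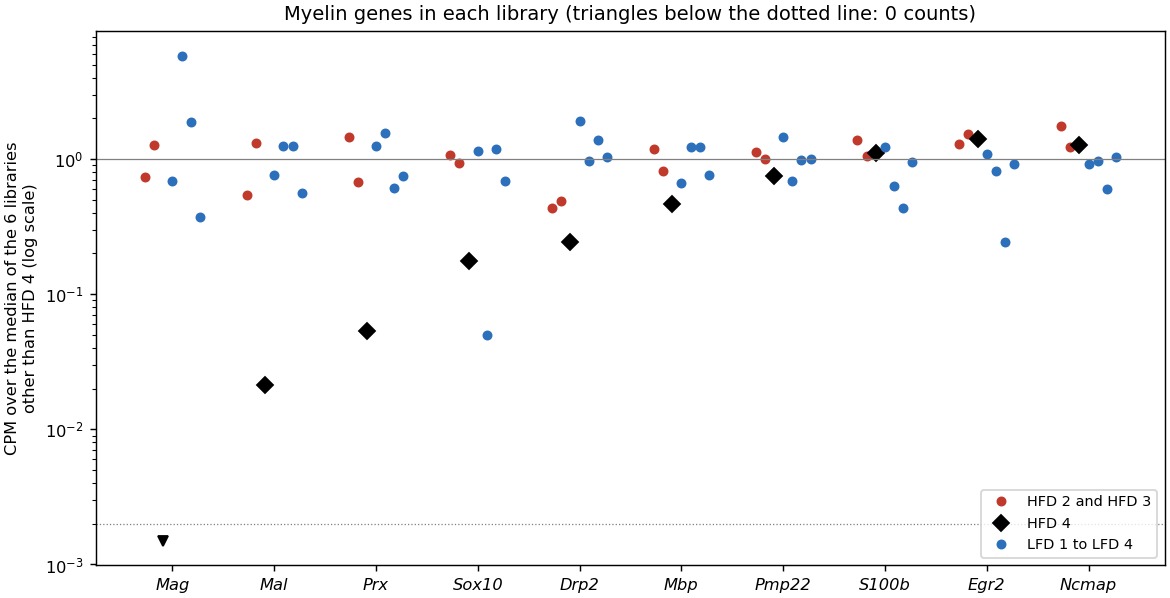
CPM of 2 myelin genes outside the list (Mag and Mal, chosen for their low values in HFD 4) and the 8 members in each library, divided by the median of the 6 libraries other than HFD 4 (log axis, HFD 2 and HFD 3 red, HFD 4 black, LFD blue, triangles for 0 counts). HFD 4 is far below the rest for Mag, Mal and Prx, and above 1 for S100b, Egr2 and Ncmap.

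Oligodendrocytes and melanocytes are other cells that use Sox10. The oligodendrocyte list summed to 0 to 0.663 CPM in HFD and 0 to 1.38 CPM in LFD, with 6 of 8 genes, Olig1 and Olig2 among them, at 0 in all libraries. The melanocyte list summed to 2.03 to 10.2 CPM in HFD and 1.99 to 4.10 CPM in LFD, with Dct, Tyr and Mlana at 0 in all libraries. Its most abundant genes were Pmel, with 0.917 to 2.62 CPM in HFD and 0 to 4.10 CPM in LFD, and Oca2, with 1.68, 0 and 7.59 CPM in HFD 2 to HFD 4, against 0, 0, 0 and 0.789 CPM in LFD 1 to LFD 4. These levels are of the size of those of Sox10, and their part in the Sox10 values was not tested. Neuron genes summed to 2.29 to 4.25 CPM in HFD and 0.435 to 6.62 CPM in LFD, with 5 of 12 at 0 in all libraries, Nefl and Snap25 among them. The chondrocyte list, in contrast, summed to 55267 to 91680 CPM in HFD and 46642 to 71348 CPM in LFD, led by Col2a1 and Chad. Of other bone and marrow cells, some lists had sums that did not overlap between the diets, while those of osteoblast and B lineage genes overlapped. Granulocyte genes summed to 8804 to 16685 CPM in HFD and 961 to 5515 CPM in LFD. Genes of reticular stroma summed to 1765 to 3044 CPM in HFD and 531 to 789.6 CPM in LFD. Osteoblast genes summed to 43906 to 70784 CPM in HFD and 17604 to 47353 CPM in LFD, and osteoclast genes to 737 to 1339 CPM in HFD and 325 to 523 CPM in LFD. In the osteoclast sum Mmp9, which granulocytes also make, had 344 to 949 CPM in HFD and 4.44 to 202 CPM in LFD. Ctsk was higher in HFD too, with 75.3 to 115 CPM against 29.2 to 50.2 CPM in LFD. Acp5 and Calcr had log2 fold changes of -0.41 and -0.60. Of 5 tested osteoclast genes 3 were higher and 2 lower in HFD. At an unadjusted p under 0.05 in edgeR, 2 were higher and 0 lower, where 5.18% of all genes were higher and 2.35% lower. B lineage genes summed to 121 to 228 CPM in HFD and 20.3 to 492 CPM in LFD, and endothelial genes to 8.38 to 21.4 CPM in HFD and 21.9 to 60.6 CPM in LFD. The part of these cells in the values of the 8 genes was not tested.

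The gene nearest to Drp2 in its pattern over the 7 libraries was Acta2, for smooth muscle actin. Likeness was measured as the root mean square difference of log2 CPM after centring each gene on its own mean, over 14302 other genes tested, and smaller means more alike. Acta2 differed from Drp2 by 0.11, and the next genes were Pcdhb12 (0.23), a protocadherin, Hic1 (0.33), a transcriptional repressor, Jsrp1 (0.33), a protein of the skeletal muscle junctional membrane, and Lbx1 (0.34), a homeobox gene of limb muscle precursors. Acta2 had 33.0, 40.2 and 20.6 CPM in HFD 2 to HFD 4, against 171, 73.9, 98.9 and 77.8 CPM in LFD 1 to LFD 4. Both genes placed the 7 libraries in the same order. The ratio of Drp2 to Acta2 counts was 0.808, 0.757 and 0.729 in HFD 2 to HFD 4, against 0.688, 0.812, 0.869 and 0.823 in LFD 1 to LFD 4, a ratio that does not depend on how libraries are scaled.

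None of the other 7 members came near Drp2 by this measure. The measure takes in the difference between the diets, on which Drp2 was selected. Genes with a like difference therefore rank near Drp2 and genes without it rank far, so nothing more is read from the ranks. Pmp22 ranked 1282 with a difference of 0.86 and Mbp 2226 with 0.92. Prx ranked 7531, S100b 9253, Ncmap 9489, Sox10 10815 and Egr2 10954. When the same search was made for the other members, an extension chosen after values were seen, the nearest genes to Ncmap were Hapln1 (0.09), the link protein of cartilage matrix, Smtn (0.11), a protein of smooth muscle, and Fam208a (0.11). Those nearest to S100b were Snap47 (0.07), Rab13 (0.08) and S100a1 (0.10), and those nearest to Egr2 were Aldh3b1 (0.09), Gys1 (0.16) and Wdcp (0.19). These likenesses rest on 7 libraries and were not tested.

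Most tested genes of the skeletal muscle list lay lower in HFD together with Drp2. The muscle list summed to 147, 156 and 159 CPM in HFD 2 to HFD 4, against 481, 266, 344 and 288 CPM in LFD 1 to LFD 4. In the LFD libraries this sum had the same order as Drp2, with LFD 1 first, then LFD 3, LFD 4 and LFD 2; in the HFD libraries it did not. Myf5, a factor of muscle precursors, had 35.3 to 38.9 CPM in HFD and 63.3 to 111 CPM in LFD, and Des, for the filament protein desmin, had 73.6 to 76.1 CPM in HFD and 119.8 to 272 CPM in LFD. Des was the largest part of this sum and is also on the pericyte and smooth muscle list. Of 9 listed genes 8 were tested, 6 lower and 2 higher (median of the log2 fold changes -1.06), and 0 passed edgeR's adjusted threshold. At an unadjusted p under 0.05 in edgeR 3 passed, all lower in HFD, where 2.35% of all genes were. DESeq2 called 3 of the list (Des, Myf5 and Myod1), where it called 0.473% of its genes as lower, and limma-voom called 0. Myh4, of mature fibres, was at 0 in all libraries, and Ckm, for muscle creatine kinase, had 0.668 to 1.68 CPM in HFD and 0 to 3.76 CPM in LFD. The pericyte and smooth muscle list, which holds Acta2, summed to 581 to 740 CPM in HFD and 580.4 to 924 CPM in LFD, with Cnn1 and Myh11 at 0 in most libraries. Most of this sum was Cspg4, a proteoglycan gene, with 417 to 585 CPM in HFD and 247 to 395 CPM in LFD. Of 8 tested genes 5 were lower and 3 higher (median of the log2 fold changes -0.61), and 0 passed edgeR's adjusted threshold. At an unadjusted p under 0.05, 4 were lower (Acta2, Tagln, Des and Notch3, none overlapping between the diets) and 1 higher (Cspg4). Over all genes tested, 2.35% were lower and 5.18% higher at that p, and 3.48% were lower without overlap. The lists were chosen with earlier results known, so nothing is read from these counts. Notch3, a receptor of mural cells, had 32.9 to 46.8 CPM in HFD and 98.1 to 124 CPM in LFD (log2 fold change -1.57 ± 0.21, SE, adjusted p = 0.083 by edgeR). DESeq2 called 4 genes of this list, the same that were lower at an unadjusted p under 0.05, and limma-voom 0. What part either cell type has in the Drp2 values was not tested. The erythroid list, with 14 of 14 tested genes lower in HFD, summed to 23113 to 111166 CPM in HFD and 94041 to 165145 CPM in LFD, and its part was not tested either.

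**Figure D4:**
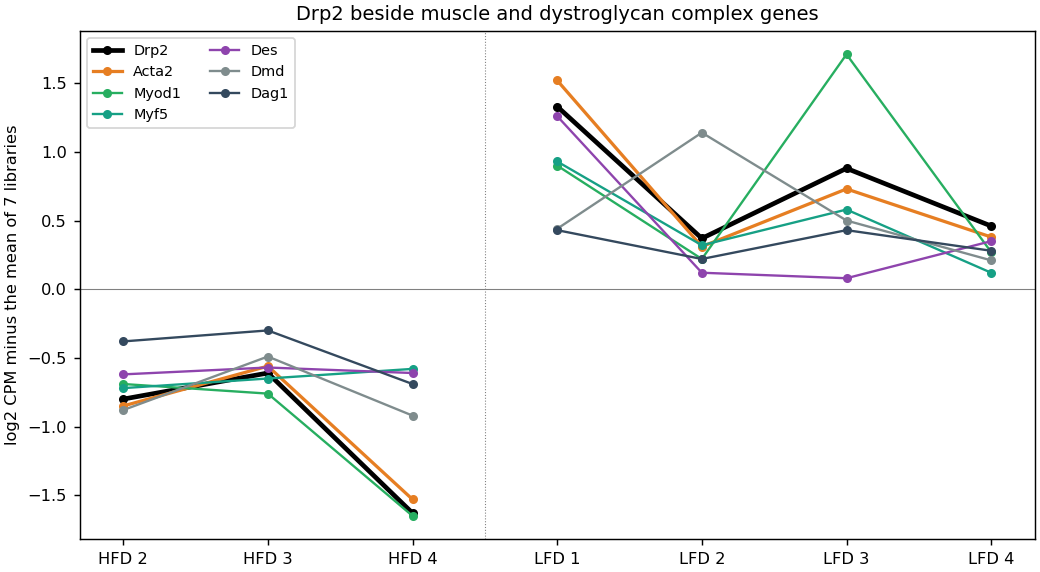
Log2 CPM minus the mean of the 7 libraries for Drp2 (black), Acta2, the muscle genes Myod1, Myf5 and Des, and the dystroglycan complex genes Dmd and Dag1, with HFD left of LFD. Drp2 and Acta2 run together through all libraries, both lowest in HFD 4 and highest in LFD 1, and all 7 genes lie below their mean in HFD and above it in LFD. That shared direction follows from the choice of genes. Acta2 was taken for its likeness to Drp2, and Dmd and Dag1 had the smallest unadjusted p of their list in edgeR. Of 8 tested muscle genes, the 2 that were higher in HFD are not plotted.

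The genes of dystroglycan and of dystrophin, the relative of Drp2, were lower in HFD as well, without passing the adjusted threshold of edgeR. Dag1 (chromosome 9, 108204634 to 108263958) had 675, 710.3 and 544 CPM in HFD 2 to HFD 4, against 1182, 1021, 1185 and 1064 CPM in LFD 1 to LFD 4. All 3 HFD libraries lay below all 4 LFD libraries (log2 fold change -0.79 ± 0.24, SE, adjusted p = 0.419 by edgeR). Dmd, the gene of dystrophin on the X chromosome (82948870 to 85206141), had 8.42, 11 and 8.21 CPM in HFD 2 to HFD 4, against 21.1, 34.5, 22.1 and 18 CPM in LFD 1 to LFD 4 (-1.38 ± 0.31, SE, adjusted p = 0.273 by edgeR). Again no HFD library reached an LFD library. DESeq2 called both (adjusted p = 0.000688 for Dag1 and 0.00292 for Dmd), and over all settings the adjusted p ran from 0.000688 to 0.900 for Dag1 and from 0.00292 to 0.856 for Dmd. Dag1 and Dmd had 0.56 and 0.55 in likeness to Drp2, ranks 78 and 68.

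Of the rest of the dystroglycan complex, only Sgca (alpha sarcoglycan) was lower in HFD without overlap between the diets. It had 5.21 to 9.21 CPM in HFD and 9.39 to 18.4 CPM in LFD (log2 fold change -0.83 ± 0.37, SE). Lamb1 (laminin beta 1) did not overlap either, but was higher in HFD (1.84 ± 1.11, SE). Over all genes tested, 3.48% were lower and 8.42% higher without overlap. The other genes of the complex overlapped between the diets. Utrn, the gene of utrophin, which is the nearest relative of dystrophin, had 25.9 ± 3.96 CPM in HFD and 21.6 ± 8.81 CPM in LFD. Sspn (sarcospan) had 120.3 ± 22.6 CPM in HFD and 104 ± 19.4 CPM in LFD, Lamc1 (laminin gamma 1) had 67.0 ± 7.49 CPM in HFD and 88.9 ± 20.8 CPM in LFD, and Sgce (epsilon sarcoglycan) had 50.1 ± 5.37 CPM in HFD and 36.7 ± 12.3 CPM in LFD. Of 21 tested genes of this list, 9 were higher and 12 lower in HFD, with a median log2 fold change of -0.11 where all genes tested had 0.02. By edgeR 0 passed the adjusted threshold and 2 had an unadjusted p under 0.05, both lower, where 2.35% of all genes were. DESeq2 called the same 2, where it called 0.473% of its genes as lower, and limma-voom called 0.

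The other genes of myelin and its control gave no called gene by edgeR. Of 15 tested genes of compact and noncompact myelin, 7 were higher and 8 lower (median log2 fold change -0.05), and none was called by DESeq2 or limma-voom. Only Mpp6 had an unadjusted p under 0.05 in edgeR, where 7.53% of all genes did. Mpp6, for a scaffold protein of the sheath, had 57.7 ± 11.3 CPM in HFD and 30.7 ± 10.1 CPM in LFD (adjusted p = 0.444 by edgeR). Cd9, a tetraspanin made by many cells, had 860.3 ± 97.6 CPM in HFD and 652 ± 249 CPM in LFD. Tspan2, another tetraspanin, had 86.6 ± 29.9 CPM in HFD and 46.2 ± 29.0 CPM in LFD, and Cnp, for an enzyme of the myelin membrane, had 60.0 ± 31.2 CPM in HFD and 62.0 ± 22.9 CPM in LFD. Gjc3, a connexin of glia, had 33.7 ± 17.5 CPM in HFD and 19.2 ± 6.13 CPM in LFD. Of 16 tested regulators of myelin transcription, 11 were higher and 5 lower (median 0.16), and 0 were called by edgeR, DESeq2 or limma-voom. At an unadjusted p under 0.05 in edgeR 2 passed, both higher in HFD, where 5.18% of all genes were. These were Id4, an inhibitor of basic helix-loop-helix factors, with 13.9 to 21.5 CPM in HFD and 5.57 to 15.9 CPM in LFD (adjusted p = 0.626 by edgeR), and Rxrg, a retinoid receptor, with 24 to 37 counts in the HFD libraries and 0 to 4 in the LFD libraries (adjusted p = 0.453 by edgeR). Jun, which holds back myelin genes in Schwann cells and is an immediate early gene elsewhere, had 871 to 1193 CPM in HFD and 621 to 1112 CPM in LFD. Id2, a relative of Id4, had 202 ± 45.3 CPM in HFD and 208 ± 118 CPM in LFD. Wwtr1 (Taz), a coactivator of the Hippo pathway, had 162 ± 11.1 CPM in HFD and 137 ± 20.2 CPM in LFD, and Srebf2, a regulator of cholesterol synthesis, had 135 ± 24.7 CPM in HFD and 149 ± 21.9 CPM in LFD.

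Among the signals between axons and Schwann cells, Nrg1, the neuregulin that axons present, was at 0 in all libraries, and its receptor gene Erbb3 was at 0 in HFD 4, LFD 2 and LFD 3. Erbb2, the partner receptor, which many cells express, had 29.6 ± 1.87 CPM in HFD and 31.0 ± 13.6 CPM in LFD. Of 10 tested genes of this list, 7 were higher and 3 lower (median log2 fold change 0.69), and 0 were called by edgeR or limma-voom. Ret, the receptor for factors of the GDNF family, had 16.5 to 18.1 CPM in HFD and 5.04 to 7.99 CPM in LFD (log2 fold change 1.46 ± 0.31, SE, adjusted p = 0.247 by edgeR), had the smallest unadjusted p of the list, and was called by DESeq2. Gdnf itself had 0, 5 and 1 counts in HFD 2 to HFD 4, against 38, 0, 42 and 79 counts in LFD 1 to LFD 4, and its receptor gene Gfra1 had 40.1 ± 24.0 CPM in HFD and 32.4 ± 18 CPM in LFD. Adgrg6, the adhesion receptor needed to start myelination, had 38.5 ± 18.9 CPM in HFD and 20.2 ± 9.43 CPM in LFD.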

How the data were processed

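RNA of CD24 and CD29 positive femur cells was measured in 7 libraries, grouped by the diet in their titles. The authors deposited raw counts for each Ensembl gene. Listed in the submitters' processing notes are mm10, STAR 2.5.2b, cutadapt, bcl2fastq 2.20, DESeq2 1.26.0 and HTSeq 0.11.2. The sources used here do not give the strand setting or annotation release. Per the labels' protocols, libraries were made with SMART-Seq v4 and Nextera XT kits. PCR copies carry no molecular identifiers, so limits cover counting error only.

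The diets were compared over 14304 genes with edgeR 4.0.16 in R 4.3.3 (quasi-likelihood, robust, TMM, filterByExpr, diet as sole term, Benjamini-Hochberg at 0.05), tested on simulated data. In that simulation 2.99% of genes given a log2 change of 1 were called, 64.2% at 2 and 95.5% at 3, with 6 false calls. The changed genes there were drawn from the more abundant ones. A count of 0 called is therefore no sign that changes near log2 1 are absent. Fold changes are HFD over LFD. DESeq2 1.42.0, limma-voom (limma 3.58.1), RLE and upper-quartile scaling, 2 other filters, fits without robust estimates, an adjusted p of 0.1, each library left out and a replicate block were alternatives. Likeness used log2 CPM with a prior count of 2. Lengths, coordinates and overlaps come from GENCODE M21 of the same build, and 42250 of 42687 identifiers had a symbol. Libraries of 1 diet differed beyond sampling noise (chi-square over degrees of freedom 57.31 or more). Nothing says that they are separate animals, so the p-values rest on a spread between samples that may be technical. Members and lists were chosen with earlier results of these data known. By rule, named genes were the members; of each pathway list any called by edgeR, otherwise the 4 most abundant and the 2 with the smallest p; the 2 most abundant of each cell type list; Schwann cell genes at 0 in all libraries; and the 5 nearest to Drp2. Several cell type lists are given by their sums alone. Other genes named were chosen after their values were seen. Some listed genes are not reported here.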

Additional observations from a re-analysis of the deposited data

How the results depend on the processing

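In all settings run except DESeq2, 0 of the 8 members and 0 of 62 tested pathway genes were called; DESeq2 called 1 member (Drp2) and 3 pathway genes (Dag1, Dmd and Ret). Over all genes, edgeR called 5, and 1 to 6 with a library left out. It called 8 without a filter beyond 1 count, 0 with at least 10 counts in 4 libraries and 10 at an adjusted p of 0.1. DESeq2 called 361 and limma-voom 0. The cause of these differences was not tested. With the replicate number as a block (numbers 2 to 4 of both diets) 0 genes were called. Same-numbered libraries did not deviate together (correlations -0.095, 0.0263 and -0.062), and 1 of the 3 HFD libraries (HFD 3) correlated best with the LFD library of its own number.

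The log2 fold changes of Drp2, Egr2, Ncmap, S100b, Dag1 and Dmd kept their sign in every setting run. Egr2 ran from 0.58 to 1.28, Ncmap from 0.50 to 0.80 and S100b from 0.34 to 0.89. The settings reuse the libraries whose results were known when the genes were chosen, so a kept sign is no independent support. Those of Prx (-1.53 to 0.02), Sox10 (-0.47 to 0.39), Mbp (-0.61 to 0.05) and Pmp22 (-0.26 to 0.11) crossed 0. The list medians crossed 0 for the dystroglycan complex (-0.16 to 0.17), myelin (-0.50 to 0.37) and axon signals (-0.05 to 1.22). Drp2 was the sixth of 8 in level per length with union exons or the longest transcript, and the ratio of the summed Schwann cell list, HFD over LFD, was 0.915 with TMM scaling and 0.982 with raw totals. Genes under about 10 counts in a library, such as Sox10 in LFD 2, are limited by depth.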

Other observations

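Some Schwann cell genes varied widely among the LFD libraries. Mag had 11.6 CPM in LFD 2 and 0.74 to 3.73 CPM in the other LFD libraries, and Cdh19, an adhesion gene of Schwann cells, had 0 counts in LFD 3 and 319 in LFD 1. Of the Schwann cell list, Scn7a, a sodium channel gene, had 4.64 to 10.1 CPM in HFD and 0.188 to 2.81 CPM in LFD, and its groups did not overlap, which held for 11.9% of all genes tested. Fabp7, a fatty acid binding protein gene of the same list, did not overlap either and was lower in HFD, with 0.193 to 0.908 CPM in HFD and 0.938 to 2.36 CPM in LFD (log2 fold change -1.26 ± 0.93, SE). Neither gene had an unadjusted p under 0.05 in edgeR. Of the perineurial and endoneurial list, Moxd1 had 20.3 to 60.6 CPM in HFD and 4.32 to 29.0 CPM in LFD, and the list summed to 855 to 1028 CPM in HFD and 450.2 to 962 CPM in LFD, led by Sox9, which chondrocytes also express.

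The 3 genes nearest to Sox10 by the measure used for Drp2 were Zfp512b (0.36), Pogk (0.49) and Gfod2 (0.50), each lowest in LFD 2. Prx was nearest to Rwdd3 (0.31), which was at 0 CPM in HFD 4.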
